A study of Homo sapiens with 24 samples.

Results

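The Notch pathway genes HEY1, HES1, RBPJ, NOTCH1, NOTCH2, JAG1, JAG2, MAML2 and DTX1 were examined in L1236 cells, a cell line derived from Hodgkin lymphoma (HL), after knockdown (KD) of NF-κB subunits. A transcript cluster is the group of array probes that is summarized to 1 value. The 9 genes were found through every cluster whose annotation holds 1 gene symbol and whose symbol is that of a listed gene. This gave 10 clusters, 2 of them for RBPJ, of the 33297 clusters on the array, of which 19460 carry 1 symbol and cover 18417 genes.

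RNA levels came from 24 arrays (Human Gene 1.0 ST, Affymetrix), 12 in each of 2 experiments. In experiment 1, 6 arrays came from cells with KD of NFKB1 and RELA (p50/RelA KD) and 6 from cells with non-targeting siRNA (control 1). In experiment 2, 6 arrays came from cells with KD of NFKB2 and RELB (p52/RelB KD) and 6 from cells with non-targeting siRNA (control 2). Each group of 6 arrays held 3 replicates with each of 2 siRNA sequences, and the methods describe the replicates as biological. The siRNA was given at 1 µM for 3 days for NFKB1, at 500 nM for 2 days for RELA, at 500 nM for 2 days for NFKB2 and at 1 µM for 3 days for RELB. The siRNAs for RELA and NFKB2 were added after those for NFKB1 and RELB, and the cells were collected 1 day after the treatment. All 4 groups came from 1 cell line, so the replicates measure its spread and not that between patients. How long the controls were exposed to siRNA is not stated in the methods used here.

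Notch signaling passes between neighbouring cells. A ligand of the Jagged or Delta-like family binds a NOTCH receptor, the receptor is cleaved, and its intracellular domain enters the nucleus, where it joins the DNA-binding protein RBPJ and a Mastermind-like coactivator. The complex activates genes such as those of the HES and HEY repressors. Hodgkin cells are known to carry active NOTCH1, for which Jagged ligands on surrounding cells are a source, and high levels of the coactivator MAML2.

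The depletion of the NF-κB subunits was made with 2 siRNAs per target, which are shown because every KD value below rests on them. The labels do not say which of each pair is sequence 1, so the order below is only that of the study's list. All are 19 bases long.
siNFKB1, 1 of 2 listed: ccaaaguauaaagauauua
siNFKB1, 2 of 2 listed: ggcucauguuuacagcuuu
siNFKB2, 1 of 2 listed: ucauugagcagauagucua
siNFKB2, 2 of 2 listed: cugucaagaucuguaacua
siRELA, 1 of 2 listed: cuuccaaguuccuauagaa
siRELA, 2 of 2 listed: ggauugaggagaaacguaa
siRELB, 1 of 2 listed: guaggauucggaaaagauu
siRELB, 2 of 2 listed: uggagaucaucgacgagua

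Each targeted transcript was lower in its own KD. In p50/RelA KD cells, NFKB1 fell to 26.5% of control 1 (log2 difference -1.92 ± 0.12, SE, adjusted p = 3.92e-06) and RELA to 38.1% (-1.39 ± 0.09, adjusted p = 3.92e-06). In p52/RelB KD cells, NFKB2 fell to 39.4% of control 2 (-1.34 ± 0.04, adjusted p = 4.75e-09) and RELB to 82.0% (-0.29 ± 0.05, adjusted p = 0.00221), so that the RELB transcript was reduced the least. These are RNA levels. The study followed the depletion of the proteins by western blot, which the arrays do not measure. NFKB2 also fell in p50/RelA KD cells, by 0.19 ± 0.04 on the log2 scale (adjusted p = 0.0457), and NFKB1 rose in p52/RelB KD cells by 0.15 ± 0.04 (adjusted p = 0.0374). Here and below, n is 6 arrays per group, SE is the standard error of the difference, and p is from limma with the replicate as a block and Benjamini-Hochberg adjustment over all tested clusters. The 6 arrays came from 3 replicates, and the fit counted the 2 arrays of a replicate in a group as separate. Fits with these 2 averaged are given in the last section for the called members. A cluster was called where its adjusted p was under 0.05 and its difference at least 10%, which is 0.14 on the log2 scale.

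The arrays give no detection call and levels of different probes cannot be compared, so the presence of a cell type was not read from marker levels, and markers are given by how they moved. Of 7 clusters of Hodgkin cell markers, 2 were lower after p50/RelA KD (CCL22, -0.75, adjusted p = 3.92e-06, and CCL17, -0.44, adjusted p = 0.00023), and after p52/RelB KD 1 was lower (CCL22, -0.86, adjusted p = 7.18e-05) and 1 higher (PAX5, 0.19, adjusted p = 0.00646). Of 4 tested clusters of B cell markers, CD22 was lower after p52/RelB KD (-0.30, adjusted p = 0.0228), and of 6 tested clusters of fibroblast, endothelial and epithelial markers, PECAM1 was higher (0.19, adjusted p = 0.00498). A second PECAM1 cluster differed by -0.33 after p52/RelB KD and was not tested there because its values were low. No cluster of the B cell list or of the fibroblast, endothelial and epithelial list was called after p50/RelA KD. None of the T and NK cell or myeloid lists was called in either experiment. Of all tested clusters, 1.07% were called after p50/RelA KD and 9.68% after p52/RelB KD. The part of these movements in the results for the Notch genes was not tested.

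The array of p52/RelB KD with sequence 2 in replicate 3 stood apart from the rest. Its mean correlation with the other arrays of its group was 0.986, against 0.993 to 0.994 for the other p52/RelB KD arrays, and its median was 7.51, against 7.39 to 7.42 for the other 11 arrays of experiment 2. Without it the differences after p52/RelB KD were -0.65 for HEY1 (adjusted p = 5.17e-06), -0.25 for RBPJ (adjusted p = 0.00233) and 0.32 for JAG1 (adjusted p = 0.00375), and these calls stood. The number of all clusters called after p52/RelB KD was 2311 without it and 1559 with it.

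HEY1, a repressor of the HES and HEY family that is a textbook target of the RBPJ complex, was the member that fell in both experiments. In p50/RelA KD cells the log2 level of HEY1 was 7.67 at the lowest, 7.71 at the median and 7.91 at the highest of the 6 arrays, against 7.99, 8.15 and 8.23 in control 1. In p52/RelB KD cells the lowest, median and highest levels were 7.72, 7.90 and 7.96, against 8.30, 8.58 and 8.64 in control 2. All 6 KD arrays thus lay below all 6 control arrays in each experiment, with no overlap. Of all tested clusters, 0.736% had every KD array below every control array in experiment 1 and 3.17% in experiment 2. Because RNA came from whole cultures, fewer cells that express a gene and less RNA per cell cannot be told apart.

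**Figure D1:**
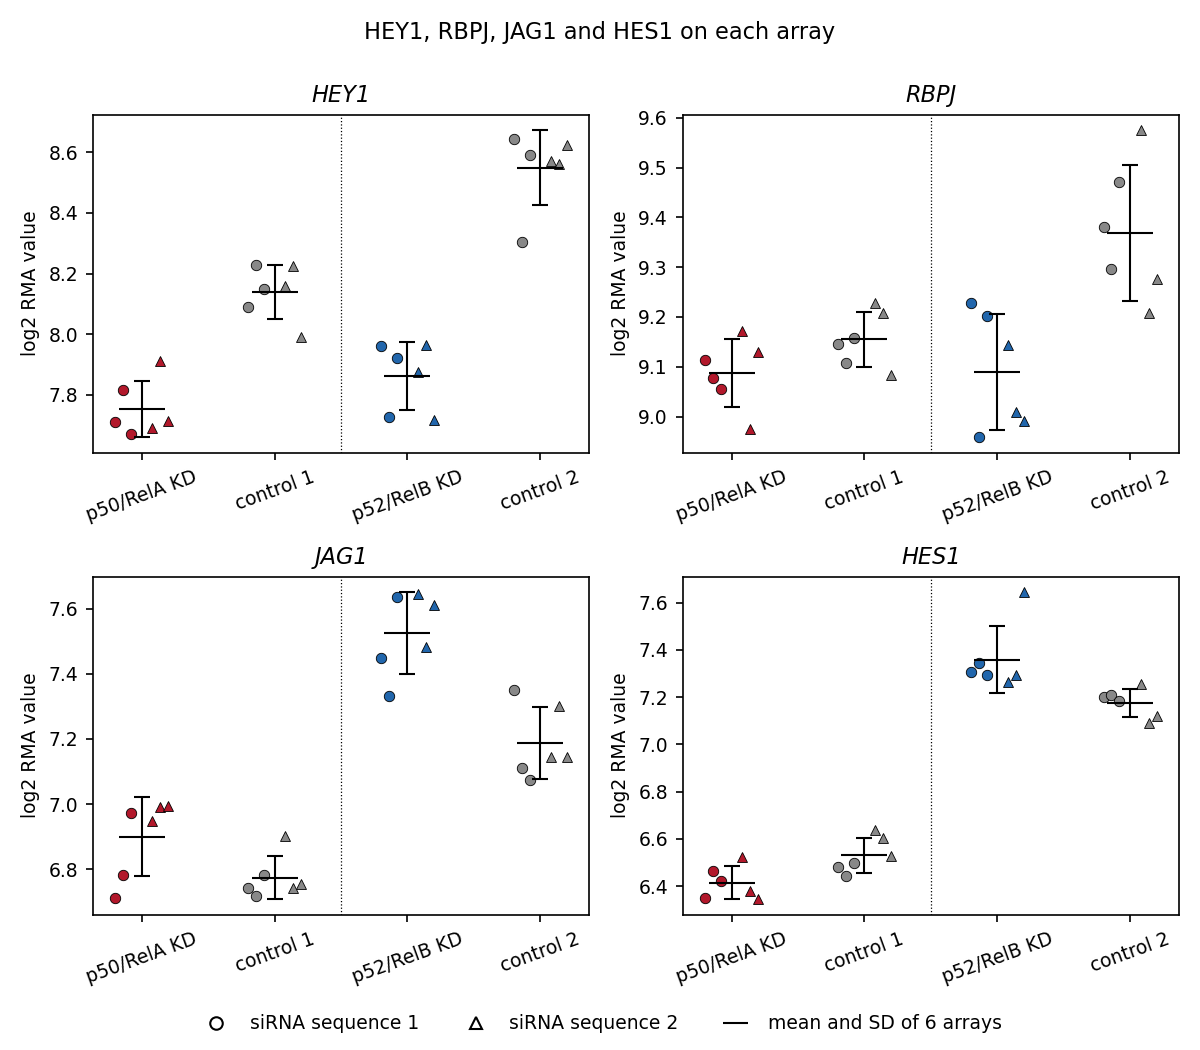
The log2 RMA level of HEY1, RBPJ, JAG1 and HES1 is plotted for each of the 24 arrays, with KD groups left of their controls, siRNA sequence 1 as circles and sequence 2 as triangles. The bars show the mean of a group and its SD over 6 arrays. The HEY1 points of p50/RelA KD (7.67 to 7.91) and p52/RelB KD (7.72 to 7.96) lie below all points of their controls.

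HEY1 averaged 7.75 ± 0.09 in p50/RelA KD cells and 8.14 ± 0.09 in control 1 (SD), a difference of -0.39 ± 0.04 (SE, 95% interval -0.47 to -0.31) and an adjusted p of 0.000199, so that its level was 76.4% of control. It averaged 7.86 ± 0.11 in p52/RelB KD cells and 8.55 ± 0.12 in control 2, a difference of -0.69 ± 0.06 (95% interval -0.82 to -0.55) and an adjusted p of 3.85e-05, or 62.1% of control. By size of fall HEY1 ranked 21 of 14672 tested clusters after p50/RelA KD and 37 of 16101 after p52/RelB KD. The fall was larger after p52/RelB KD. The difference between both KD effects (p50/RelA minus p52/RelB) was 0.30 ± 0.07 with an adjusted p of 0.0196 in the joint fit of both experiments. This call was lost without replicate 1 (0.32, adjusted p = 0.198), without replicate 3 (0.25, adjusted p = 0.158) and without the replicate block (0.30, adjusted p = 0.072). The 2 experiments differ in their cultures, their scans and the depth of each depletion, and these cannot be told apart from the subunits depleted.

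Every replicate and both siRNA sequences gave a lower HEY1. The replicates differed from control by -0.42, -0.36 and -0.38 after p50/RelA KD and by -0.69, -0.59 and -0.79 after p52/RelB KD. Against all control arrays of the experiment, the KD arrays with sequence 1 differed by -0.41 and those with sequence 2 by -0.37 after p50/RelA KD, and by -0.68 and -0.70 after p52/RelB KD. Fitted with the arrays of sequence 2 alone, 3 per group, the call was lost in both experiments (-0.35, adjusted p = 0.692, and -0.73, adjusted p = 0.0859). Set against the mean of the 2 control arrays of its own replicate, each of the 6 arrays of either KD was lower, by values between -0.44 and -0.31 in p50/RelA KD cells and between -0.89 and -0.47 in p52/RelB KD cells. As the arrays of a replicate were scanned in 1 batch, these are also differences within a scan batch.

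**Figure D2:**
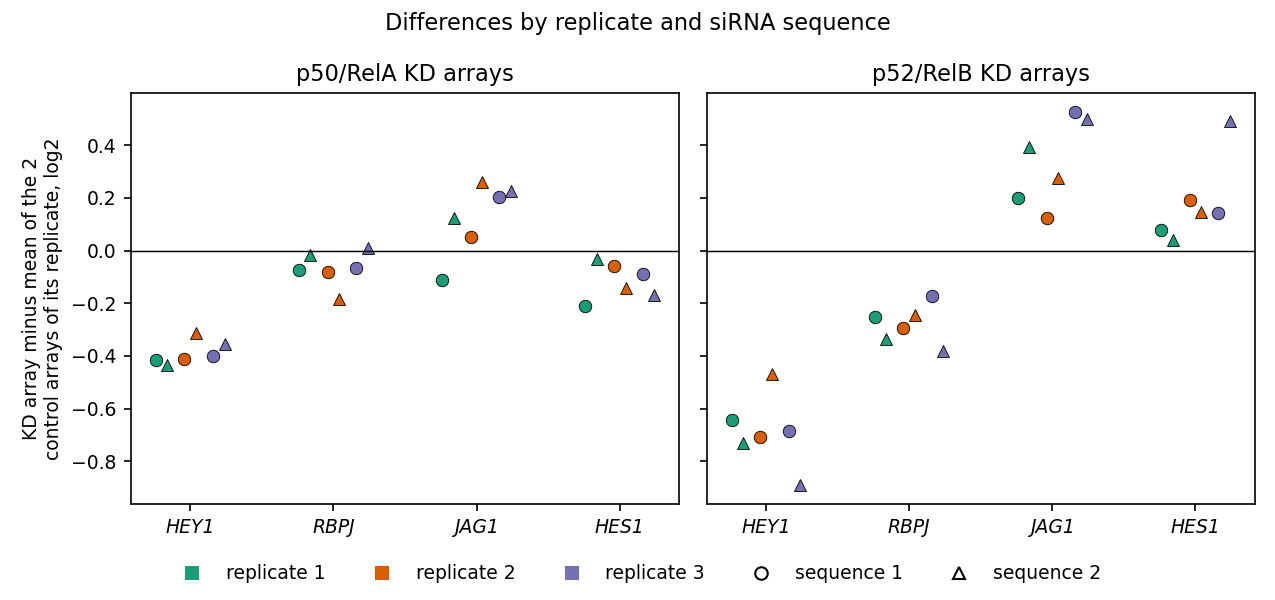
Each point is the log2 level on 1 KD array minus the mean of the 2 control arrays of its replicate, coloured by replicate and shaped by siRNA sequence, for p50/RelA KD (left) and p52/RelB KD (right). All points of HEY1 lie below 0 in both panels (-0.44 to -0.31 and -0.89 to -0.47), whereas the points of HES1 lie below 0 after p50/RelA KD (-0.21 to -0.03) and above 0 after p52/RelB KD (0.04 to 0.49).

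Among the 10 Notch clusters, all of which passed the filter on low values in both experiments, HEY1 was the 1 called after p50/RelA KD. In this comparison 1.07% of all tested clusters were called, and 0.825% were called lower. After p52/RelB KD, 2 clusters were called lower (HEY1 and RBPJ) and 1 was called higher (JAG1). Of all tested clusters in this comparison, 9.68% were called, with 5.75% of all tested clusters called lower and 3.93% called higher. The median difference of the 10 clusters was -0.01 after p50/RelA KD and 0.00 after p52/RelB KD, against 0.00 and 0.02 over all tested clusters. At an unadjusted p under 0.05 in limma, 4 of the 10 clusters passed after p50/RelA KD, against 10.5% of all tested clusters, and 5 of the 10 passed after p52/RelB KD, against 22.8%.

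**Figure D3:**
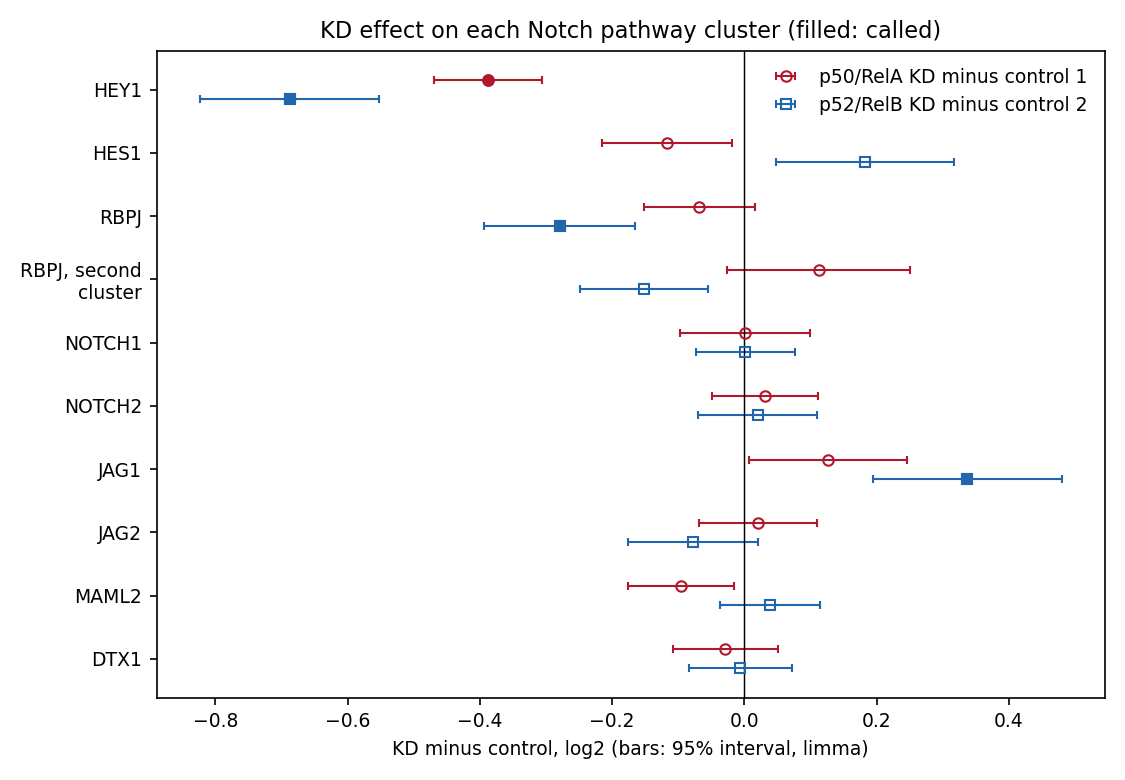
The KD minus control difference (log2) is plotted for each of the 10 Notch clusters with its 95% interval from limma, for p50/RelA KD (circles) and p52/RelB KD (squares), filled where called. HEY1 is filled in both experiments (-0.39 and -0.69), and RBPJ (-0.28) and JAG1 (0.34) in p52/RelB KD.

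Of the ligands, JAG1, a transmembrane Jagged ligand that neighbouring cells present to NOTCH receptors, rose after p52/RelB KD. Its log2 level was 7.33, 7.55 and 7.64 at the lowest, median and highest array of p52/RelB KD cells, against 7.08, 7.14 and 7.35 in control 2. The groups overlapped by a narrow margin, since 5 of the 6 KD arrays lay above the highest control array. The means were 7.53 ± 0.13 and 7.19 ± 0.11 (SD), a difference of 0.34 ± 0.07 (SE, adjusted p = 0.00602), or 1.26-fold, with 0.30, 0.20 and 0.51 in the replicates. The call was lost without replicate 1 (0.36, adjusted p = 0.0642) and with either siRNA sequence alone (0.29, adjusted p = 0.0716, and 0.38, adjusted p = 0.283). In p50/RelA KD cells JAG1 lay between 6.71 and 7.00 with a median of 6.96, against 6.72 to 6.90 with a median of 6.75 in control 1. These groups overlapped, and the difference of 0.13 ± 0.06 did not pass (adjusted p = 0.435). The difference between the KD effects of JAG1, -0.21 ± 0.09, did not pass either (adjusted p = 0.215). JAG2, the second Jagged ligand, had differences of 0.02 ± 0.04 after p50/RelA KD (95% interval -0.07 to 0.11) and -0.08 ± 0.05 after p52/RelB KD (-0.18 to 0.02), and was not called.

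The receptors NOTCH1 and NOTCH2 were not called in either experiment. The NOTCH1 difference was 0.00 ± 0.05 after p50/RelA KD (95% interval -0.10 to 0.10) and 0.00 ± 0.03 after p52/RelB KD (-0.07 to 0.08). NOTCH2 differed by 0.03 ± 0.04 after p50/RelA KD (-0.05 to 0.11) and by 0.02 ± 0.04 after p52/RelB KD (-0.07 to 0.11). Differences smaller than these intervals were not detectable with 6 arrays per group. NOTCH2 has near-identical copies in the genome (the NOTCH2NL genes), so that its value is uncertain, and a further cluster whose annotation names several of these genes was not used.

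RBPJ, the DNA-binding protein through which all NOTCH receptors act on their target genes, fell after p52/RelB KD. Its log2 level was 8.96, 9.08 and 9.23 at the lowest, median and highest of the p52/RelB KD arrays, against 9.21, 9.34 and 9.58 in control 2. The groups overlapped at their edges, with 5 of the 6 KD arrays below the lowest control array. RBPJ averaged 9.09 ± 0.12 and 9.37 ± 0.14 (SD), a difference of -0.28 ± 0.05 (SE, adjusted p = 0.00505), so that it was at 82.4% of control. The replicates gave -0.29, -0.27 and -0.28, and all 6 KD arrays were lower than the controls of their replicate. The size hardly moved without replicate 1 (-0.27, adjusted p = 0.0817) or replicate 2 (-0.28, adjusted p = 0.0967), but the call was lost.

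In p50/RelA KD cells RBPJ lay between 8.97 and 9.17 with a median of 9.10, against 9.08 to 9.23 with a median of 9.15 in control 1. The groups overlapped and the difference of -0.07 ± 0.04 did not pass (adjusted p = 0.608). The difference between both KD effects was 0.21 ± 0.06 (adjusted p = 0.0688). The second RBPJ cluster, whose annotation holds no RefSeq transcript, differed by 0.11 ± 0.06 after p50/RelA KD (adjusted p = 0.604) and by -0.15 ± 0.04 after p52/RelB KD (adjusted p = 0.0509). The p52/RelB KD value was called under 9 of 29 alternatives, among them array weights (-0.16, adjusted p = 0.0159) and a stricter low limit (-0.15, adjusted p = 0.0375). RBPJ has pseudogenes, so this cluster is an uncertain measure of the gene.

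MAML2, a coactivator that binds the complex of RBPJ and the NOTCH intracellular domain, was not called. Its difference was -0.10 ± 0.04 after p50/RelA KD (adjusted p = 0.346) and 0.04 ± 0.03 after p52/RelB KD (adjusted p = 0.549), and the difference between both was -0.13 ± 0.05 (adjusted p = 0.115).

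HES1, like HEY1 a repressor that the RBPJ complex activates, did not pass in either experiment taken alone. In p50/RelA KD cells its log2 level was 6.35, 6.40 and 6.53 at the lowest, median and highest array, against 6.44, 6.51 and 6.64 in control 1, so that the groups overlapped. In p52/RelB KD cells it was 7.27, 7.30 and 7.65, against 7.09, 7.19 and 7.25 in control 2, with every KD array above every control array. HES1 and HEY1 were the 2 members without overlap after p52/RelB KD, where 5.27% of all tested clusters had none and 2.1% had every KD array above every control array, while after p50/RelA KD it was 1 member (HEY1) with 1.11% of all tested clusters.

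The HES1 differences had opposite signs. They were -0.12 ± 0.05 after p50/RelA KD (adjusted p = 0.350) and 0.18 ± 0.06 after p52/RelB KD (adjusted p = 0.0892), with 0.06, 0.17 and 0.32 in the replicates of experiment 2. The difference between both KD effects was called, at -0.30 ± 0.08 (adjusted p = 0.0298), and 4.35% of the 14647 clusters tested in both experiments were called in this way, 1.9% with a negative difference as for HES1 and 2.45% with a positive one as for HEY1, while no other member was. This call was lost without any 1 of the replicates 1, 2 and 3 (-0.36, adjusted p = 0.106, -0.31, adjusted p = 0.174, and -0.23, adjusted p = 0.147). The array that stood apart (p52/RelB KD, sequence 2, replicate 3) had the highest HES1 level, 7.65, and without it the HES1 difference after p52/RelB KD was 0.12 (adjusted p = 0.0252), under the size needed for a call, and the difference between both KD effects was -0.24 (adjusted p = 0.0147).

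The promoters of RBPJ and HES1 are shown because they were the windows of the members that hold the core sequence bound by RBPJ. The windows are the 250 bases before an annotated gene start (RefSeq, GRCh38.p14), and 7 of the 9 genes had such windows, 11 in all, with 5 for RBPJ. HEY1 and DTX1 were not searched. The letters TGGGAA, and the longer GTGGGAA that contains them, were searched on both strands. TGGGAA was found in 2 of the 11 windows, 1 of RBPJ and that of HES1, and in 20.8% of all 35116 promoter windows. GTGGGAA was in the same 2 windows and in 5.43% of all windows. TGGGAA or its reverse complement is in capitals.
RBPJ, chr4:26319496-26319745, plus strand: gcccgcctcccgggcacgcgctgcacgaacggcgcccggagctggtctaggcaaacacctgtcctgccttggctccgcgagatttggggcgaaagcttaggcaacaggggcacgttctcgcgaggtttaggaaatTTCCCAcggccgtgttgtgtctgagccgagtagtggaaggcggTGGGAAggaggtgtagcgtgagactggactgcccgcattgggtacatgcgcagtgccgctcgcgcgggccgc
HES1, chr3:194135898-194136147, plus strand: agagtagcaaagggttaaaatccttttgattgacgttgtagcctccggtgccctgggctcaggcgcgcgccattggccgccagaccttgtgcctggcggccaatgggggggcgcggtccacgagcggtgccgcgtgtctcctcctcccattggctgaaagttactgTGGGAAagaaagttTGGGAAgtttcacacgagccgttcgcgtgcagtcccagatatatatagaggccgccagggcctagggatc

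In the RBPJ window GTGGGAA lies from 115 to 109 bases before the start on the minus strand and from 73 to 67 bases before it on the plus strand. In the HES1 window TGGGAA lies at 84 to 79 and at 70 to 65 bases before the start, both on the plus strand, and the first of them is part of GTGGGAA. The κB consensus was searched as GGG, then A or G, any 2 bases, 2 bases that are C or T, and CC. It was found in 2 of the 11 windows, those of NOTCH2 and JAG2, and in 9.96% of all windows. Neither of these genes was called. The windows of the called members RBPJ and JAG1 held no match to this strict pattern, while HEY1 was not searched. Strings that depart from the pattern, such as ggaaatTTCCC in the RBPJ window shown, were not counted. A match is a string of letters and no measure of binding.

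DTX1, a ubiquitin ligase that binds the NOTCH intracellular domain and is itself a Notch target in lymphocytes, was not called. It differed by -0.03 ± 0.04 after p50/RelA KD (95% interval -0.11 to 0.05) and by -0.01 ± 0.04 after p52/RelB KD (-0.08 to 0.07).

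The 2 siRNA sequences of a group were compared on 3 arrays each, which limits what can be called. In limma no tested cluster was called between sequence 1 and sequence 2 in any of the 4 groups. At an unadjusted p under 0.05 there were 514 of 14672 clusters in p50/RelA KD and 333 of 14672 in control 1. In experiment 2 there were 1536 of 16101 in p52/RelB KD and 160 of 16101 in control 2. The share was largest in p52/RelB KD, the group that holds the array that stood apart. Of the members, JAG1 (sequence 1 minus sequence 2, -0.16 ± 0.07, unadjusted p = 0.0461) and JAG2 (0.13 ± 0.05, unadjusted p = 0.0225) were furthest apart in p50/RelA KD cells, with an adjusted p of 0.999 for both. These values do not show that the sequences act alike.

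A wider list of 69 Notch pathway genes that are not members was then examined by role. Of these, 63 had a cluster with 1 symbol and 62 were tested, on 64 clusters. After p50/RelA KD 1 gene was lower and none was higher, where 1.07% of all tested clusters were called. After p52/RelB KD 6 genes were lower and 4 were higher, 15.6% of the 64 clusters, against 9.68% of all tested clusters. The median difference was -0.02 after p50/RelA KD and 0.02 after p52/RelB KD.

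Most of the calls lay among the textbook targets. After p52/RelB KD, 7 of the 9 tested target genes were called, 4 lower and 3 higher, where 9.68% of all tested clusters were called. The list was chosen with earlier results of these data known. It leaves out targets counted elsewhere, such as HEY1, HES1, DTX1 and the other HES and HEY repressors, so its count depends on how it was drawn. The genes that rose were FCER2, the low-affinity IgE receptor CD23 (0.48 ± 0.04, adjusted p = 9.75e-06), IL2RA, the alpha chain of the interleukin-2 receptor (0.47 ± 0.06, adjusted p = 0.000287), and CCND3, a D-type cyclin (0.24 ± 0.05, adjusted p = 0.012). The genes that fell were IGF1R, a growth factor receptor (-0.32 ± 0.05, adjusted p = 0.00107), CDKN1A, the cell cycle inhibitor p21 (-0.27 ± 0.05, adjusted p = 0.00674), GATA3, a transcription factor (-0.22 ± 0.04, adjusted p = 0.00414), and BCL2, an inhibitor of apoptosis (-0.16 ± 0.04, adjusted p = 0.0121). IGF1R had a second cluster that was not called (-0.06 ± 0.05, adjusted p = 0.482). CDKN1A was also the 1 gene lower after p50/RelA KD (-0.33 ± 0.04, adjusted p = 0.000626). The list holds genes that other pathways regulate as well, and it moved in both directions.

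The other calls after p52/RelB KD lay among the coactivators and the regulators of receptor turnover. They made up 16.7% of the coactivator clusters and 22.2% of the receptor turnover clusters, where 9.68% of all tested clusters were called. After p50/RelA KD, where 1.07% of all tested clusters were called, lists this short would mostly hold no call. Of the coactivators, MAML3 was lower after p52/RelB KD (-0.17 ± 0.05, adjusted p = 0.0378) and 5 genes were not called. Of the regulators of receptor turnover, DTX3L, a member of the Deltex family, was higher after p52/RelB KD (0.33 ± 0.07, adjusted p = 0.011). FBXW7, the ubiquitin ligase subunit that marks the NOTCH intracellular domain for degradation, was lower (-0.18 ± 0.05, adjusted p = 0.0391), and 7 genes were not called. No gene was called in either experiment among the 2 other receptors, the 3 genes of ligand endocytosis, the 5 of receptor glycosylation, the 8 of receptor cleavage, the 10 corepressors, the 3 Delta-like ligands and the 7 other HES and HEY repressors. The Delta-like ligand DLL1 was close, with -0.19 ± 0.05 after p50/RelA KD (adjusted p = 0.0624) and -0.14 ± 0.04 after p52/RelB KD (adjusted p = 0.0321), where it missed the size needed. HEY2 and HEYL, the nearest relatives of HEY1, differed by 0.15 ± 0.06 (adjusted p = 0.407) and 0.00 ± 0.07 (adjusted p = 0.996) after p50/RelA KD and by 0.06 ± 0.05 (adjusted p = 0.467) and 0.01 ± 0.06 (adjusted p = 0.924) after p52/RelB KD.

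**Figure D4:**
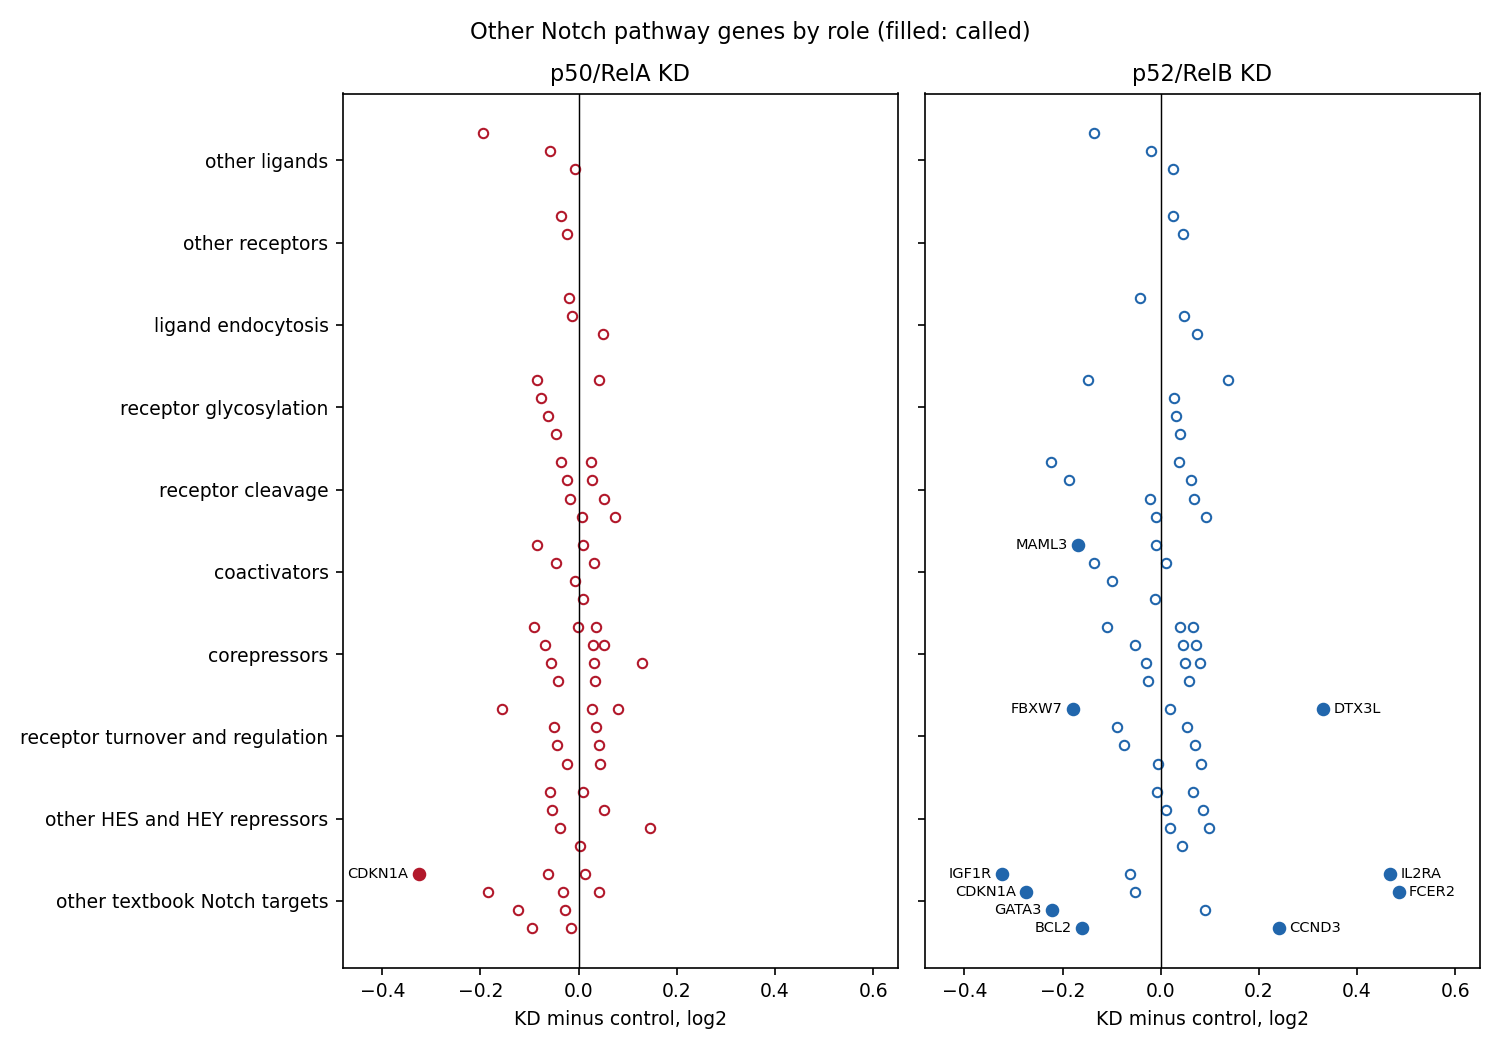
The KD minus control difference (log2) of each tested cluster of the 69 further pathway genes is plotted by role, for p50/RelA KD (left) and p52/RelB KD (right), with called clusters filled and named. In p52/RelB KD the filled points lie mostly in the row of textbook targets, from -0.32 for IGF1R to 0.48 for FCER2, while the row of the other HES and HEY repressors has none.

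The genes whose values ran most like those of HEY1 were RHOF, TNFAIP6 (a hyaluronan-binding protein), POU2F3 (a POU domain transcription factor), SEMA7A (a membrane-anchored semaphorin) and PHF19 (a Polycomb-associated protein). Their Pearson r with HEY1 over the 24 arrays was 0.97, 0.97, 0.97, 0.96 and 0.96. For this, each value was centred on the mean of the 4 arrays of its replicate, and 14646 clusters were compared. The arrays share the KD contrast, so the values are a description. After p50/RelA KD the 5 genes fell by 0.19 ± 0.03, 0.48 ± 0.05, 0.21 ± 0.04, 0.33 ± 0.04 and 0.31 ± 0.05 on the log2 scale, and after p52/RelB KD by 0.39 ± 0.04, 0.79 ± 0.07, 0.51 ± 0.04, 0.85 ± 0.05 and 0.96 ± 0.05, in the order named. The 5 genes were picked for running like HEY1 on these same arrays. Falls in both experiments therefore follow from that choice and are not a test. Within the Notch members the r with HEY1 was 0.80 for RBPJ, 0.20 for the second RBPJ cluster, -0.74 for JAG1 and -0.41 for HES1. For the other members it lay between -0.28 (NOTCH2) and 0.24 (JAG2).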

How the data were processed

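The authors deposited log2 values from RMA (background correction, quantile normalization and summary per transcript cluster of Human Gene 1.0 ST arrays). The medians of the deposited arrays were close but not equal, at 6.94 to 6.99 in experiment 1 and 7.39 to 7.51 in experiment 2. The processing gives no detection call, and levels of different clusters, or of the 2 experiments, were not set against each other. All 24 columns of the table were matched to samples through the labels, and 0 columns of sample values were left unused. Clusters were named from the platform annotation, updated through RefSeq. Of 33297 clusters, 19460 had 1 symbol, 1754 had several and were not tested.

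Within each experiment, clusters with at least 50% of arrays below 6 were left out, and KD minus control was fitted in R 4.3.3 with limma 3.58.1, in which replicate was a blocking factor. The block followed from the labels' replicate numbers, with deviations of the control and KD arrays of a replicate correlated at 0.45, 0.19 and 0.25 in experiment 1 and 0.57, 0.27 and 0.38 in experiment 2. A joint fit gave the difference of the KD effects, and a further fit set sequence 1 against sequence 2 in each group. A call needed an adjusted p under 0.05 and a difference of 10%. Precision is limited by the number of arrays. The fits were tested on simulated data. No 2 arrays were identical (highest correlation 0.998). JAG1, HES1, NOTCH1 and the second RBPJ cluster lay near the low limit of 6. The methods' t-test, normalization, filters, array weights, scan batch and left-out arrays were tried as alternatives.

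All clusters of the 9 listed genes were described whether called or not. From 69 other pathway genes, those called were named, beside the siRNA targets, the 5 genes most like HEY1 and genes near the threshold or related to HEY1, which were chosen after their values were seen. The members, lists and tests were chosen with earlier results of these data known.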

Additional observations from a re-analysis of the deposited data

Results flagged for a closer look

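In 5 of the 40 groups of 6 arrays tested for the 10 clusters, 1 array lay further from the nearest of the others than Dixon's limit allows, and chance alone flags about 1 in 20 groups. HEY1 was at 8.30 in control 2 with sequence 1 in replicate 2, where the nearest array was at 8.56. Without it the HEY1 difference after p52/RelB KD was -0.73. HES1 was at 7.65 in p52/RelB KD with sequence 2 in replicate 3, with the nearest at 7.34. JAG2 was at 9.19 in p52/RelB KD with sequence 1 in replicate 3, with the nearest at 9.46. NOTCH1 was at 6.92 in p50/RelA KD with sequence 1 in replicate 1, with the nearest at 6.85. JAG1 was at 6.90 in control 1 with sequence 2 in replicate 1, with the nearest at 6.78.

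The effects of both KDs differed from each other for 2 members by a test of the difference. For HEY1 it was 0.30 (p50/RelA KD effect minus p52/RelB KD effect), with a fall in both experiments. For HES1 it was -0.30, with a lower mean after p50/RelA KD and a higher mean after p52/RelB KD, neither of which passed alone.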

How the results depend on the processing

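The HEY1 call held under 28 of 29 alternatives in each experiment and was lost with sequence 2 alone (-0.35, adjusted p = 0.692, after p50/RelA KD and -0.73, adjusted p = 0.0859, after p52/RelB KD). The direction of HEY1, RBPJ, JAG1 and HES1 held under all alternatives tried. The RBPJ call after p52/RelB KD held under 25 of 29, and was also lost in the methods' t-test on the deposited values (adjusted p = 0.0695) and with sequence 2 alone (-0.31, adjusted p = 0.346). The JAG1 call held under 26 of 29, and the difference of the KD effects under 28 of 31 for HEY1 and 19 of 31 for HES1. Beside the left-out replicates, single arrays took the HES1 difference to an adjusted p of at most 0.0607. With the sequences averaged within each replicate, the calls held in limma with larger adjusted p. These were 0.0122 for HEY1 after p50/RelA KD, and 0.00365 for HEY1, 0.0278 for RBPJ and 0.0482 for JAG1 after p52/RelB KD. The fits with 1 sequence alone rest on 3 arrays per group. JAG1, HES1 and NOTCH1 lie near the low limit, where the arrays give no detection call.

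The number of clusters called after p50/RelA KD was 157. It was 59 without the replicate block (unpaired), 16 in the methods' t-test on deposited values, 45 with sequences averaged, 37 with sequence 1 alone, 3 with sequence 2 alone, 103 with no filter on low values and 337 with array weights. Leaving out a replicate or an array gave 18 (without replicate 1) to 194. After p52/RelB KD it was 1559, and 880 without the replicate block, 561 in that t-test, 632 with sequences averaged, 5 with sequence 2 alone, and 444 (without replicate 1) to 2311 with a replicate or array left out. For the difference of KD effects it was 637, and 250 without the replicate block and 168 (without replicate 1) to 936 with a replicate or array left out. Of the members, 0 were called with sequence 2 alone in either experiment by limma (4 and 5 had an unadjusted p under 0.05 in the fit of all arrays). After p52/RelB KD, 1 (HEY1, without replicate 1) to 4 were called on leaving out. For the difference it was 1 without the replicate block, 5 after a further quantile normalization and 0 to 3 on leaving out (0 without replicate 1 or 3).

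The values whose sign turned were not called in any fit, and all but that of the second RBPJ cluster after p50/RelA KD (0.11) were within 0.03 of 0. With sequence 2 alone these were NOTCH1 (-0.040), JAG2 (-0.043) and DTX1 (0.015) after p50/RelA KD, and NOTCH2 (-0.039) and DTX1 (0.049) after p52/RelB KD. NOTCH1 after p52/RelB KD was -0.023 with sequence 1 alone, -0.0097 after quantile normalization, -0.010 with arrays centred on their median and -0.016 with array weights. After quantile normalization DTX1 was 0.0059 after p52/RelB KD, and the NOTCH1 difference of KD effects was 0.016. On leaving out a replicate or array, the ranges that crossed 0 after p50/RelA KD were -0.037 to 0.026 (NOTCH1), -0.0072 to 0.042 (JAG2) and -8.87e-06 to 0.19 (the second RBPJ cluster). After p52/RelB KD they were -0.032 to 0.024 (NOTCH1), -0.0092 to 0.053 (NOTCH2) and -0.023 to 0.011 (DTX1). For the difference of KD effects they were -0.039 to 0.025 (NOTCH1), -0.030 to 0.037 (NOTCH2) and -0.066 to 0.0039 (DTX1). The cause of these changes was not tested. Testing of clusters with several symbols, and leaving out single arrays in the joint fit, were chosen after seeing the data.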
